A study of Homo sapiens with 8 samples.

Results

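Of the 45381 autosomal H3K9me3 intervals of drug-tolerant persister cells, 10492 had no overlap with any interval of untreated parental cells and none with any interval of persisters given trichostatin A. These are the intervals described here, and they are called lost gained intervals below. A gained interval is a persister interval with 0 bp of overlap with the parental list, and it is lost when it also has 0 bp of overlap with the list after trichostatin A, or kept when at least 1 bp is shared with that list. On the autosomes 65.1% of persister intervals were gained, 27.9% were absent after trichostatin A and 23.1% were both, which is the rule itself. The intervals were chosen by these overlaps, so the shares carry no test, and the DTP lengths and signals below come from the same list and are given as description. Of the other autosomal persister intervals, 19060 were gained and kept, 13638 were shared with parental cells and kept, and 2191 were shared with parental cells and absent after trichostatin A.

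All samples came from PC9, an established cell line grown from a human lung adenocarcinoma, which depends on a mutated EGFR receptor. Parental cells had no treatment. Persisters (DTP) were the cells that survived 8 days in 1 uM erlotinib, an inhibitor of the EGFR kinase, and in the DTP + TSA state such survivors also had trichostatin A (TSA), an inhibitor of histone deacetylases, at 50 nM for 5 hours. The H3K9me3 data are 1 library and 1 deposited list per state, so differences have no check against replicates and no test was made. The lists held 23842, 47866 and 53000 intervals on all chromosomes in parental, DTP and DTP + TSA cells, 124708 in all. Percentages carry exact Clopper-Pearson 95% intervals in parentheses, which cover counting error only, and neighbouring intervals are not independent.

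Trimethylation of lysine 9 on histone H3 marks constitutive heterochromatin and is bound by HP1 proteins. SUV39H enzymes place it on satellite repeats around centromeres, and SETDB1, brought to DNA by TRIM28 and KRAB zinc finger proteins, places it on retrotransposons such as LINE-1 elements and endogenous retroviruses. Histone deacetylases remove acetyl groups, among them the one on the same lysine, which must be free before it can be methylated.

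As a class, the lost gained intervals were shorter and weaker than the kept gained ones. Their median length was 1800 bp (order-statistic 95% interval 1800 to 1800), against 2400 bp for kept gained intervals and 3800 bp for intervals shared with parental cells and kept. Up to 1 kb long were 21.4% (20.6 to 22.2) of the lost and 7.73% (7.35 to 8.12) of the kept gained intervals. At the other end, 758 lost gained intervals, or 7.22%, were over 4 kb, and 13 were over 8 kb. Together they covered 21.2 Mb, which was 13.4% of the autosomal DTP length and 44.0% of the DTP length that was not covered after TSA. Kept gained intervals covered 59.5 Mb, of which 19.5% had no cover after TSA.

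The mean signal of an interval is the authors' value over its bins, and it is compared only within the DTP list. Where a neighbour in another list is given with its mean signal, that value is on its own list's scale. Its median was 8.17 (8.11 to 8.23) in lost gained intervals, 10.8 in kept gained ones and 13.2 in shared and kept ones. Intervals shared with parental cells but absent after TSA had the same low level, at 8.17. The middle part of the lost gained intervals, from the 25th to the 75th percentile, ran from 6.75 to 10.2, against 8.56 to 14 in kept gained intervals, so the distributions overlapped widely. Above the autosomal DTP median of 10.4 lay 22.7% of the lost and 54.3% of the kept gained intervals. The shortest intervals were not the weakest. In lost gained intervals the median mean signal was 10.7 up to 1 kb and 7.03 over 4 kb, and in kept ones 13 and 10.1. The median summit value was 15 in lost gained intervals, 23 in kept ones and 32 in shared and kept ones. The summit stood 1.83 times above the mean signal in lost gained intervals and 2.13 times in kept ones. This ratio rose with length, and within length classes the gap was smaller: 1.51 against 1.58 up to 1 kb, 1.80 against 1.88 from 1 to 2 kb, 2.03 against 2.24 from 2 to 4 kb, and 2.31 against 2.53 over 4 kb.

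**Figure D1:**
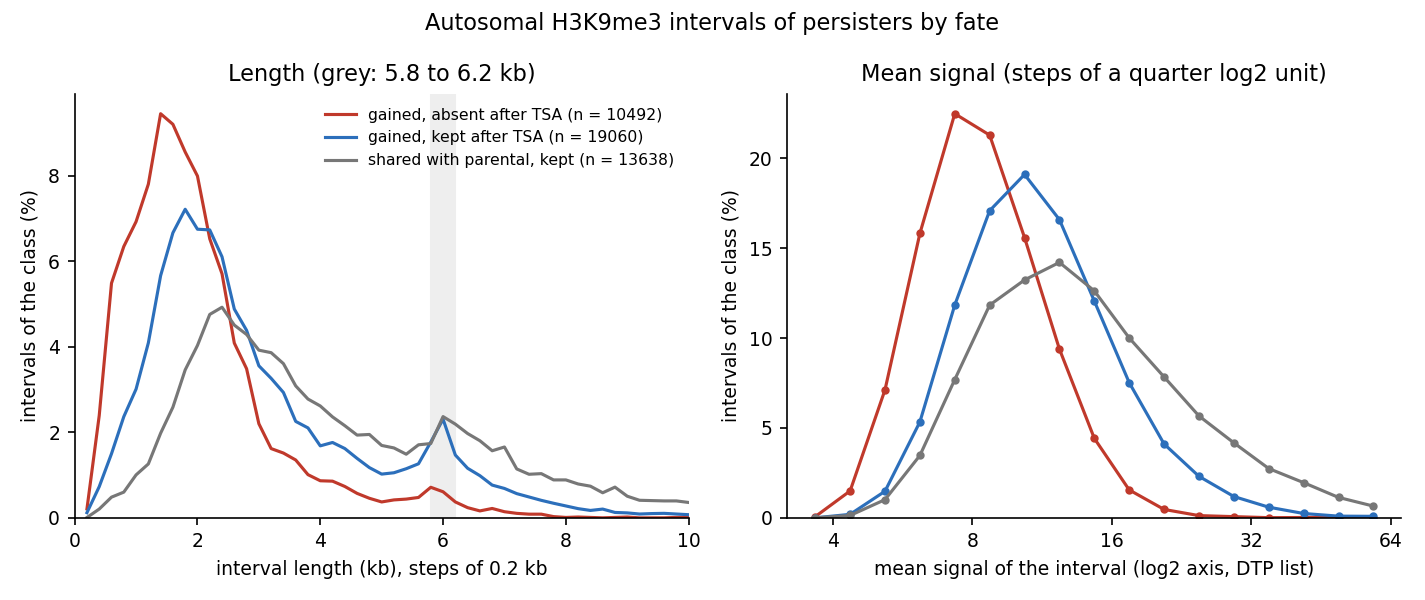
Length (left, kb) and mean signal (right, log2 axis) of autosomal DTP intervals, each line giving the percentage of its class per step, for gained intervals absent after TSA, gained intervals kept, and intervals shared with parental cells and kept. The lost class peaks at shorter lengths and lower signal (medians 1800 bp and 8.17), lengths over 10 kb and signals over 64 are not drawn, and the grey band marks 5.8 to 6.2 kb.

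Length and signal each went with the share lost. Of all gained intervals 35.5% (35 to 36.1) were lost, against 13.8% (13.3 to 14.4) of those shared with parental cells. By length, the lost share of gained intervals was 60.3% up to 1 kb, 43.8% from 1 to 2 kb, 29.2% from 2 to 4 kb and 14.2% over 4 kb. By deciles of mean signal it ran from 67.7% (66.0 to 69.4) in the weakest to 7.07% (6.17 to 8.05) in the strongest, and it was lower in each decile than in the one before. Among gained intervals over 4 kb in the strongest quartile, with a mean signal above 12.7, only 8 of 1161 were lost. Among those up to 1 kb in the weakest quartile, below 7.71, 194 of 258 were lost.

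Gained intervals were lost more often than shared ones also within classes of length and signal. In each of 16 classes, made from 4 length classes and 4 quartiles of mean signal, the lost share was higher for gained than for shared intervals. Weighted to the make-up of the gained intervals, it was 35.5% for gained and 28.1% for shared intervals, a difference of 7.42 points in place of 21.7. The classes do not match fully: over 4 kb in the strongest quartile, which has no upper limit, the median signal was 15.2 for gained and 18.1 for shared intervals. For example, from 2 to 4 kb in the weakest quartile 55.7% (53.9 to 57.4) of gained and 40.9% (37.8 to 44.0) of shared intervals were lost.

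**Figure D2:**
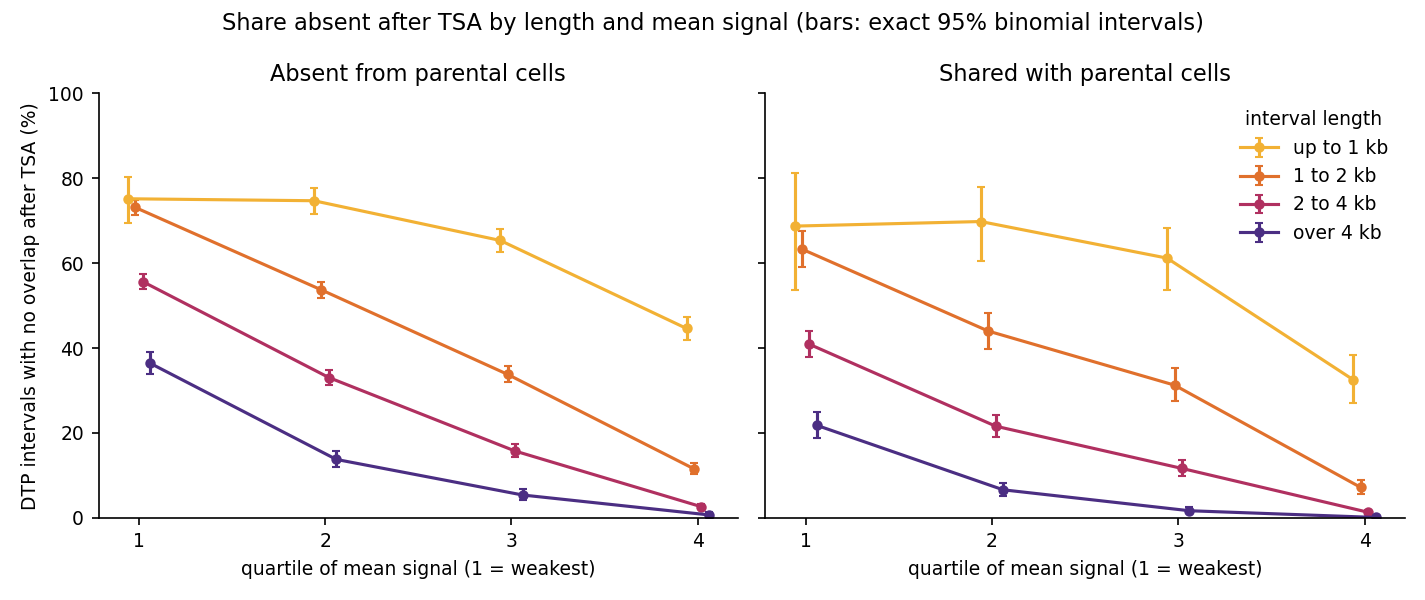
Percentage of autosomal DTP intervals with no overlap after TSA, by quartile of mean signal (borders from gained intervals) and length class, for intervals absent from parental cells (left) and shared with them (right), with exact 95% binomial intervals. The share falls from 75.2% to 0.69% across the gained classes, and each gained class lies above its shared counterpart.

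The rule has a sharp edge, and few of the lost gained intervals lay within 1 kb of an interval of another list. Such a gap depends on how many intervals a list holds. It does not show how near a place was to the calling threshold. The nearest DTP + TSA interval was a median of 18.8 kb away (18.2 to 19.6), and the nearest parental interval 47.7 kb (45.8 to 49.2). Within 1 kb of a DTP + TSA interval lay 368, or 3.51%, of which 11 touched one, and within 1 kb of a parental interval lay 154, of which 8 touched one. At more than 20 kb from any DTP + TSA interval lay 5051, or 48.1%. The 475 intervals just inside the rule, within 1 kb of either list, had medians of 2000 bp and 7.79 for length and mean signal. Just outside it, 51 gained intervals shared up to 200 bp with DTP + TSA, with medians of 400 bp and 13.8. Another 23 intervals absent after TSA shared up to 200 bp with parental cells, with medians of 1200 bp and 8.39. Distance to parental heterochromatin went with the lost share only weakly: it was 32.7% (31.0 to 34.4) for gained intervals within 5 kb of a parental interval and 38.8% (37.8 to 39.9) for those over 100 kb away.

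The lost gained intervals lay more often in dark Giemsa bands, which are AT-rich and poor in genes, than the kept ones. In the dark bands gpos75 and gpos100 lay 3931 of the 10492, or 37.5% (36.5 to 38.4), against 27.3% (26.7 to 28.0) of kept gained intervals and 24.1% of shared and kept ones. Intervals shared with parental cells but absent after TSA stood between lost and kept gained ones, at 32.7% (30.7 to 34.7). Light bands (gneg) held 40.3% of the lost and 48.7% of the kept gained intervals. Per Mb, lost gained intervals were densest in gpos100 bands at 4.89, followed by 4.33 in gpos75, 3.70 in gpos50, 3.46 in gneg and 3.28 in gpos25 bands. Kept gained intervals stood in the opposite order, with 5.96, 6.36, 6.67, 7.60 and 7.95 per Mb.

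Read as a lost share, 45.1% (43.7 to 46.5) of gained intervals were lost in gpos100 bands, 40.5% (39.0 to 42.0) in gpos75, 35.7% in gpos50, 29.2% in gpos25 and 31.3% (30.5 to 32.1) in gneg bands. Centromeric bands (acen) stood between these at 38.5% (34.0 to 43.1), with 177 of 460, and variable bands (gvar) at 43.0% (33.7 to 52.6), with 49 of 114. The dark bands together reached 43.0% and exceeded light bands by 11.7 points (Newcombe 95% interval 10.4 to 13). Within each length class the dark bands were also higher: 65.2% against 57.9% up to 1 kb, 50.5% against 39.2% from 1 to 2 kb, 36.5% against 25.7% from 2 to 4 kb, and 19.6% against 11.2% over 4 kb. Weighted over the 16 classes of length and signal, the shares were 40.8% and 32.5%, a difference of 8.29 points, with dark bands higher in 15 of the 16. Among intervals shared with parental cells the lost share was also higher in gpos100 than in gneg bands. It was 19.5% (17.8 to 21.2) against 12.0% (11.3 to 12.8), so the difference by stain was not particular to gained intervals.

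Gained intervals near chromosome ends were lost less often than those farther away. Within 2 Mb of an end 186 of 1150 gained intervals were lost, or 16.2% (14.1 to 18.4), from 2 to 5 Mb 20.3%, from 5 to 10 Mb 28.2%, from 10 to 20 Mb 34.9%, and beyond 20 Mb 38.2% (37.6 to 38.9). Within 5 Mb of an end the share was 18.4% (16.8 to 19.9). Over 4 kb in length 12 of 356 gained intervals, or 3.37%, were lost within 2 Mb of an end and 618 of 3789, or 16.3%, beyond 20 Mb. Light bands alone showed the same order, from 15.5% within 2 Mb of an end to 34.8% beyond 20 Mb. Beyond 20 Mb, dark bands stood at 43.8% (42.7 to 44.9), above these light bands. Weighted over 15 classes of length and signal, the share was 21.7% within 5 Mb and 37.4% beyond 20 Mb. Among intervals shared with parental cells the lost share also rose with distance from an end. It was 3.61% within 2 Mb and 15.3% beyond 20 Mb, so the difference by distance was not particular to gained intervals. Cover by the DTP + TSA list moved with place as well. It was 19.9% of the sequence within 5 Mb of an end and 4.92% beyond 20 Mb, against 10.2% and 5.37% for the DTP list. In dark bands the DTP + TSA list covered 3.59% and in light bands 7.99%, against 4.57% and 6.24% for the DTP list. The part of this wider cover in the differences by place was not tested.

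**Figure D3:**
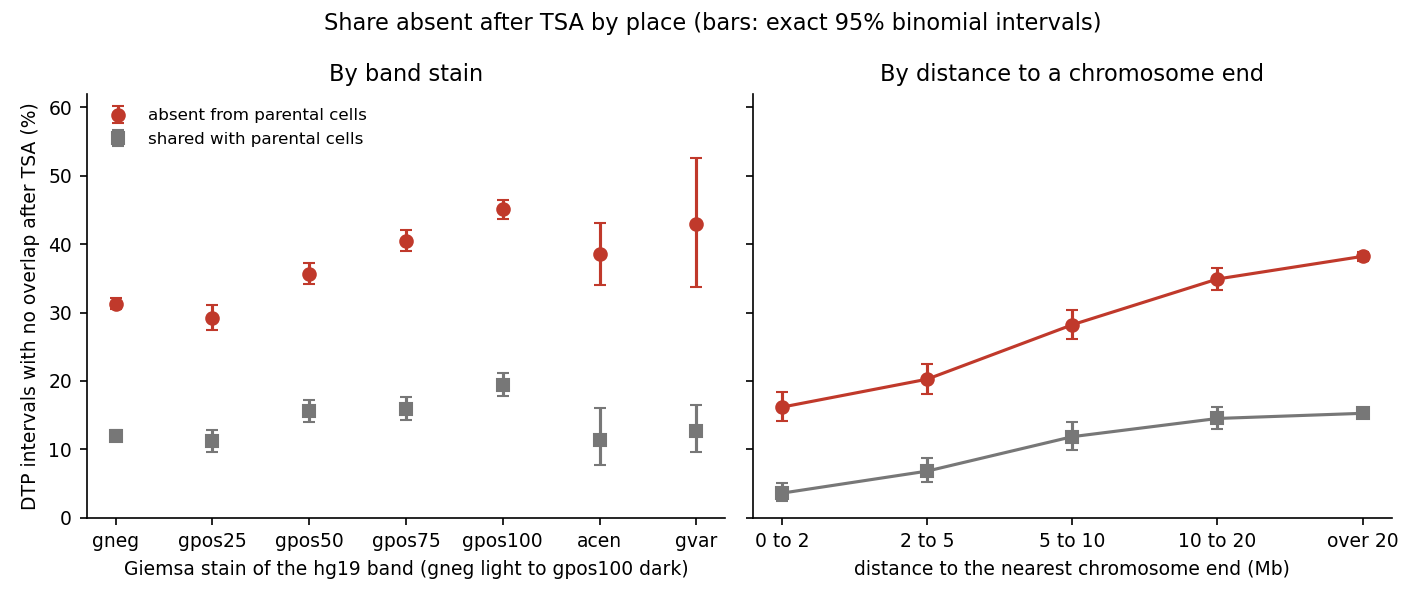
Percentage of autosomal DTP intervals with no overlap after TSA by Giemsa stain of the hg19 band (left) and by distance to the nearest chromosome end in Mb (right), for intervals absent from parental cells (circles) and shared with them (squares), with exact 95% binomial intervals. For gained intervals the share is 45.1% in gpos100 and 31.3% in gneg bands, and 16.2% within 2 Mb of an end.

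By chromosome, the lost gained intervals were spread over all 22 autosomes, from 72 on chromosome 22 to 976 on chromosome 2. Chromosome 4 was the densest at 4.71 per Mb and chromosome 22 the sparsest at 1.40. Density was taken over the full hg19 length, acrocentric short arms included, although only 6 of the 10492 lay on those arms. The lost share was highest on chromosome 4, at 41.1% (39.1 to 43.2), and on chromosome 8, at 40.1% (37.6 to 42.6), whose intervals overlap. It was lowest on chromosome 19, at 19.9% (16.7 to 23.4), and chromosome 22, at 23.2% (18.6 to 28.2), which also overlap, followed by 16, 17, 15 and 20 at 28.7% to 30.8%. The other autosomes lay between 33.2% and 38.2%, most with intervals that overlap. Median length was 1600 or 1800 bp on every autosome, and the median mean signal ran from 6.97 on chromosome 21 to 8.94 on chromosome 7.

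**Figure D4:**
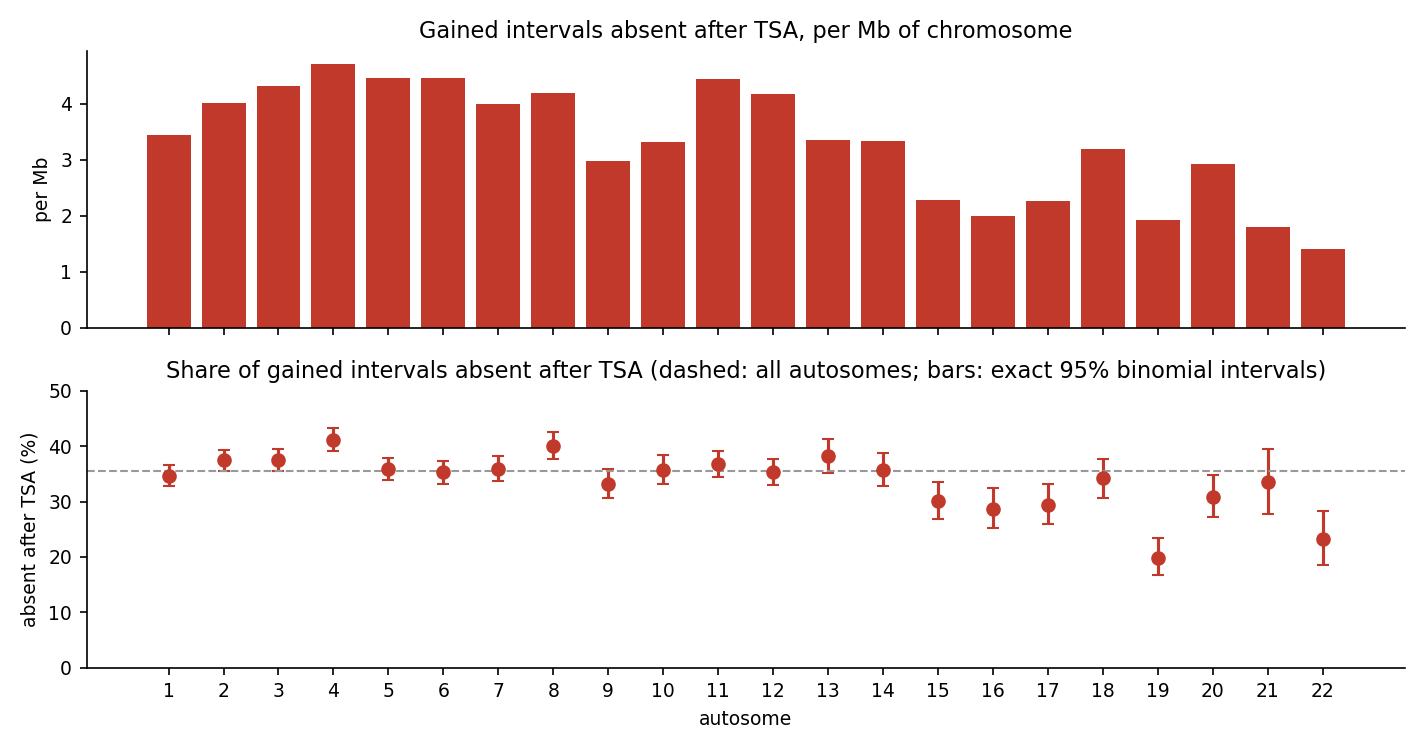
Number of lost gained intervals per Mb of each autosome (top, bars) and percentage of gained intervals absent after TSA (bottom, points with exact 95% binomial intervals, dashed line at 35.5% for all autosomes). Chromosomes 19 and 22 stand lowest in the lower panel, at 19.9% and 23.2%, and chromosomes 4 and 8 highest.

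Among 774 autosomal bands of at least 1 Mb, 734 held at least 1 lost gained interval. The largest numbers were in 1p31.1, 5q14.3 and 4q24, with 80, 69 and 62, 2 of them long gpos100 bands. In 4q24 this was 9.39 per Mb, and the lists covered 1.34% (parental), 5.96% (DTP) and 3.96% (DTP + TSA) of that band. In 442 bands with at least 30 gained intervals the median lost share was 35.7%, with 80% of bands between 21.2% and 50.0%. The highest shares were in 5p14.3 (27 of 40), 3p24.1 (33 of 50), 11p14.3 (34 of 54), 8q24.13 (32 of 51) and 2p16.2 (19 of 31), from 61.3% to 67.5%. With so few intervals each, their 95% intervals begin between 42.2% and 51.2%. The first 3 are dark bands and the other 2 are light ones. In 5p14.3 the parental list covered 2.84%, the DTP list 3.45% and the DTP + TSA list 1.94%. The DTP list also covered more than the parental list in 3p24.1 (3.40% against 1.56%) and 11p14.3 (4.20% against 1.93%). It covered less in 8q24.13 (5.75% against 8.68%) and 2p16.2 (6.67% against 9.34%). The lowest shares were in 11p15.5 (1 of 44), 22q13.33 (1 of 34) and 16q24.1 (1 of 31), all light bands, 2 of them at a chromosome end. Their coverage was 11.6%, 18.6% and 6.24% in DTP and 26.1%, 48.6% and 19.1% in DTP + TSA. Bands named here were chosen by their lost intervals, which by rule count toward DTP cover alone. The coverage values of these bands are therefore not independent of the choice. Of the 20 bands with the highest lost share 12 were dark, and of the 20 with the lowest none was, against 143 of all 442.

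Lost gained intervals lay somewhat farther from kept ones than kept ones lay from each other. The nearest kept gained interval was a median of 43.6 kb away (42.2 to 45.6), and 54.0% (53.1 to 55.0) of the lost had one within 50 kb. For comparison, a kept gained interval lay 35 kb (34.4 to 35.8) from the next kept one, and 60.6% (59.9 to 61.3) had one within 50 kb. In dark bands the distance from a lost to a kept gained interval was 50.4 kb, and in light bands 40.1 kb. Another lost gained interval stood within 50 kb of 41.0% (40.0 to 41.9), with a median distance of 70.6 kb, and there are fewer lost than kept intervals to be near. These distances move with the number of intervals: that to a kept gained interval was 71.9 kb with only the DTP intervals at or above the median signal and 121 kb with equal numbers of the strongest intervals from each list. The share with another lost interval within 50 kb was then 13.5% and 29.9%.

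Neighbours shared their fate to a small degree. The next gained interval along the chromosome was lost after 40.0% (39.1 to 41.0) of lost gained intervals and after 33.0% (32.3 to 33.7) of kept ones. In dark bands these shares were 45.3% (43.7 to 46.9) and 41.3% (39.9 to 42.6), and in light bands 36.4% (34.9 to 37.8) and 29.0% (28.1 to 29.9). Counting all DTP intervals in order, 50.9% of the lost gained intervals stood alone between intervals of other classes, and 582 lay in 99 runs of 5 or more. The longest run held 12 in a row over 1138 kb of 4q26 (chr4:117729201-118867600). The next held 11 in 2p22.1 (chr2:40934601-41588400). These runs were chosen after their values were seen.

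Of 2897 windows of 1 Mb on the autosomes, 87.8% held at least 1 lost gained interval, the median window held 3 and 88 windows held at least 10. The fullest window was chr8:43000001-44000000, in 8p11.21 and 8p11.1 beside the centromere, with 31 lost and 20 kept gained intervals. The parental list covered 4.12% of it, the DTP list 17.2% and the DTP + TSA list 9.48%. Most of its lost intervals were weak, with a median mean signal of 6.09 and a median length of 2400 bp, but one of them was the second strongest of all, described below. The next windows were chr4:104000001-105000000 in 4q24, with 18 lost and 10 kept, and chr12:55000001-56000000 in 12q13.2, with 17 lost and 10 kept. In these the mean signal of lost intervals had medians of 7.04 and 7.73. The lists covered 0.94% and 1.12% (parental), 7.98% and 7.86% (DTP) and 4.12% and 3.36% (DTP + TSA). The windows were chosen for their number of lost intervals, which by rule count toward DTP cover alone. This order of cover, also in the fullest window, therefore follows in part from the choice.

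A full-length LINE-1 element is about 6 kb long, and the length of an interval was examined for that reason. No repeat annotation was used here, so which intervals lie on such elements is not known. Intervals of 5.8 to 6.2 kb numbered 178 among the lost gained intervals, or 1.70% (1.46 to 1.96), against 1058, or 5.55% (5.23 to 5.89), among the kept. Even so, this class was more frequent among the lost than its shorter neighbours, with 131 intervals of 4.8 to 5.2 kb, a ratio of 1.36 (1.08 to 1.72). Among kept gained intervals the same ratio was 1.71 (1.54 to 1.89), and among shared and kept ones 1.19 (1.08 to 1.32). Among shared intervals absent after TSA it was 0.90 (0.58 to 1.38). Of all gained intervals in the 6 kb class 14.4% (12.5 to 16.5) were lost, and of those of flanking lengths (4.8 to 5.2 and 6.8 to 7.2 kb) 15.2% (13.2 to 17.4), so no difference was detectable within counting error. When an interval counted as shared only with at least 50% of it covered, the 6 kb class made up 3.67% of the lost gained intervals, and with the same number of the strongest intervals taken from each list 5.2%. With only the DTP intervals at or above the list's median signal, it made up 0.57%.

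The summit of these 6 kb intervals lay at an edge more often than in other intervals. In the outer 10% of the length at either edge lay the summit of 72 of the 178 lost gained intervals, or 40.4% (33.2 to 48.0), 37 at the left and 35 at the right edge. In the lost gained intervals of flanking lengths this was 34 of 180, or 18.9% (13.5 to 25.4). Kept gained intervals had 33.4% (30.5 to 36.3) in the 6 kb class and 11% (9.17 to 13.1) in the flanking lengths. Shared and kept intervals had 21.9% (19.2 to 24.8) and 8.13% (6.71 to 9.74). Shared ones absent after TSA had 16.3% (6.81 to 30.7) and 10.6% (4.37 to 20.6), which overlap. The edge-heavy shape of the 6 kb class was therefore present in lost and in kept gained intervals, and in shared and kept ones. Dark bands held 78 of the 178, or 43.8% (36.4 to 51.4), and 59 of the 180 of flanking lengths, or 32.8% (26.0 to 40.2), whose intervals overlap. Kept gained intervals had 34.8% (31.9 to 37.7) in dark bands in the 6 kb class and 25.4% (22.7 to 28.2) in the flanking lengths. Shared and kept ones had 26.3% (23.4 to 29.4) and 20.1% (18.0 to 22.4). In signal the lost 6 kb intervals were weaker than the kept, with medians of 7.55 and 10.4 for the mean and 17 and 25 for the summit.

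**Figure D5:**
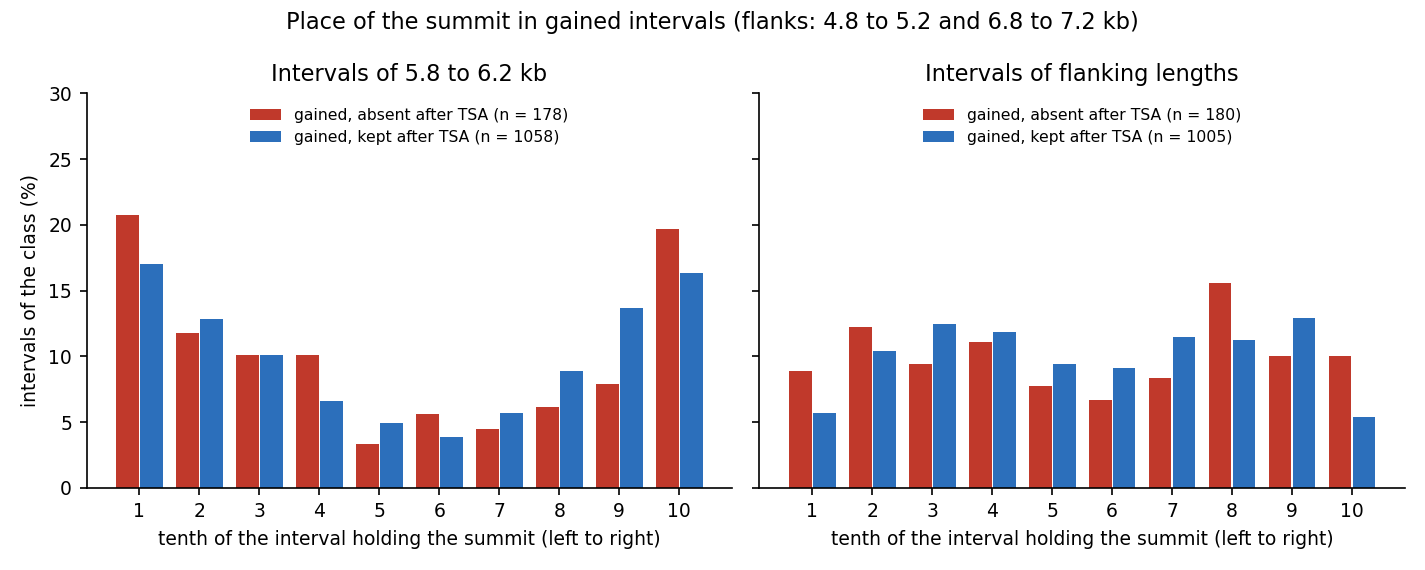
Place of the summit in 10 equal steps from left to right along the interval, as a percentage of gained intervals absent after TSA and kept, for lengths of 5.8 to 6.2 kb (left) and for flanking lengths (right). In the 6 kb class both outer steps stand highest in either class (20.8% and 19.7% for lost intervals), whereas in the flanking lengths they do not.

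Over all lengths the summit of lost gained intervals lay a little nearer to an edge than that of kept ones. On a scale from 0 at the nearest edge to 0.5 at the centre, the median was 0.29 (0.29 to 0.30) and 0.31 (0.31 to 0.31), and 28.9% (28.0 to 29.7) and 25.6% (24.9 to 26.2) had it in the outer 20% at either edge. Up to 1 kb the medians were equal at 0.35, and from 2 to 4 kb they were 0.28 (0.27 to 0.29) and 0.34 (0.33 to 0.34). This scale joins both edges, which were not alike. The first 10% of the length, at the left, held 1.76% of lost and 2.72% of kept summits, and the last 10% held 6.86% and 4.98%. The cause of this asymmetry was not tested.

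A few of the lost gained intervals were among the strongest of the whole DTP list. The highest, at chr10:42596601-42602200 in 10q11.21 (hg19), was 5.6 kb long with a mean signal of 12361 and a summit of 78237, the first of all DTP intervals by mean signal. The nearest intervals were 7600 bp away in parental cells, with a mean signal of 5.69, and 3400 bp away in DTP + TSA, with 52.1. The second, chr8:43092801-43097600 in 8p11.21, was 4.8 kb long with a mean of 2964 and a summit of 13991, and its nearest DTP + TSA interval, 3200 bp away, had a mean of 29.5. The third, chr3:196625601-196626000 in 3q29, was 0.4 kb long with a mean of 1106 and a summit of 1230. The fourth stood at 52.7, so the 3 form a group of their own, and they are the same 3 that lead by summit. They held 32.7% of the summed signal of all lost gained intervals. These heights were read from the DTP library alone, and the input samples were not examined. Whether such heights, and their absence from the other lists, reflect the mark itself was not tested.

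Most other intervals of this height were present in the other lists. Of 16 DTP intervals with a mean signal over 1000, 13 overlapped a DTP + TSA interval and 12 a parental one, and these 3 overlapped neither. Within 300 kb of the chromosome 10 interval, 2 others exceeded a mean of 100. The one at chr10:42355001-42411600 had a mean of 2644 and the one at chr10:42519001-42540400 had 797. Both overlapped intervals of the parental and the DTP + TSA list. Of the 16, only these 3 and an interval in 2p11.1 had no parental overlap, and the one in 2p11.1 was kept. The regions of this comparison outside the 3 strongest were chosen after their values were seen.

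The longest lost gained intervals differed in strength. The first, chr9:68989001-69003200 in 9q21.11, was 14.2 kb long with a mean signal of 14.3 and a summit of 52 near the left edge, both above the 95th percentiles of lost gained intervals (14.2 and 26). Its nearest parental interval was 528800 bp away, and its nearest DTP + TSA interval 44800 bp. The second, chr3:160301001-160313000 in 3q25.33, was 12.0 kb long with a mean of 6.81 and a summit of 21, and had a parental interval 1800 bp away and a DTP + TSA interval 8000 bp away whose mean was 45.2. The third, chr1:101152401-101163800 in 1p21.2, was 11.4 kb long with a mean of 8.41, near the median, and a summit of 37. Its nearest intervals lay on the same side, 5600 bp away in parental cells and 4400 bp away in DTP + TSA.

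In the 6 kb class the strongest lost gained intervals were chr2:184038601-184044600 in 2q32.1, chr7:54109001-54115000 in 7p11.2 and chr10:46989401-46995200 in 10q11.22. Their mean signals were 13.4, 12.2 and 11.8, and their summits 34, 25 and 42. The one in 7p11.2 stood apart from the other lists, with the nearest parental interval 133400 bp and the nearest DTP + TSA interval 170200 bp away.

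Among bands of clustered gene families, those of zinc finger genes had a low lost share, below that of light bands. Genes were placed in bands, so these values describe surroundings and not the genes. In 32 bands with at least 5 C2H2 zinc finger genes, many of which encode KRAB repressors that direct this mark to retrotransposons, 390 of 1670 gained intervals were lost, or 23.4% (21.3 to 25.5), against 35.5% over all gained intervals. None of these gained intervals lay in a dark band, and the share over all light bands was 31.3%. Gained intervals of the zinc finger bands had a median length of 2600 bp, against 2200 bp in all light bands. The part of length in their lower lost share was not tested. The minimum of 5 genes was chosen after the data were seen. In 32 bands with at least 5 olfactory receptor genes, which encode odorant receptors silent outside the nose, the share was 31.8% (29.5 to 34.1), near that of light bands, with 12.8% of gained intervals in dark bands. It was 26.3% (21.5 to 31.5) in 7 bands of keratin genes, which encode epithelial filament proteins. None of those bands is dark, and the interval includes the light-band share. In 4 bands of defensins, which are antimicrobial peptides, it was 28.9% (22.4 to 36.1), which includes the overall share. In the band of the clustered protocadherins, adhesion proteins of neurons, 19 of 42 were lost, or 45.2% (29.8 to 61.3), which includes the overall share too. The bands of 14 genes of the H3K9 methylation machinery were at 29.6% (25.9 to 33.4), and those of 14 genes of nucleic acid sensing at 29.1% (25.3 to 33.2). No autosomal band held 5 cancer-testis genes of the list.

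An interval missing from a list can still hold signal below the calling threshold, and depth is unknown from the lists. Since the DTP list enters both steps, a loss after TSA cannot be told apart here from an interval called in the DTP library alone. With only the DTP intervals at or above that list's median signal, the number fell to 2456 and the lost share of gained intervals to 18.9%. With equal numbers of the strongest intervals from each list there were 6023, of which 2435 were also lost by the rule used here, and the share was 46.7%.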

How the data were processed

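H3K9me3 ChIP-seq of 3 PC9 samples was used, out of 8 in the series; 2 H3K4me3 and 3 input samples were not analysed here. The submitters' processing notes name BWA, SICER, hg19 and dm3 and give no version or role for any. In the sources used here the calling threshold, the use of input and any scaling of the libraries are not given. The deposited lists give each interval's summit value and mean value as signal, and its number of bins, per the file headers. A deeper library or looser threshold adds weak and short intervals, and the lists carry no read totals, so the precision behind each signal value is unknown. Starts lay on a grid of 200 bp, and no interval passed an hg19 chromosome end.

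Overlap was computed in Python 3.11.15 with numpy 2.4.6, pandas 2.3.3 and scipy 1.17.1, and figures drawn with matplotlib 3.10.9. Bands came from circlize 0.4.16 under R 4.3.3, by interval midpoint. Distances to chromosome ends leave out acrocentric short arms. Coordinates are 1-based on hg19. Genes of a GRCh38.p14 RefSeq table were placed in GRCh38 bands and matched to hg19 bands by name (56752 of 56752 autosomal genes); no hg19 annotation or sequence was used. The code was tested on simulated data: 6 of 6 checks were right. Medians carry order-statistic intervals.

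The members, lists and classes were chosen with earlier results of these data known. Named regions were the 3 longest, strongest and highest members, the 3 strongest of 5.8 to 6.2 kb, the 3 fullest windows and bands, and the bands with the 5 highest and 3 lowest lost shares. Alternatives changed the overlap rule, the thresholds, the joining of intervals and the chromosomes and bands included.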

Additional observations from a re-analysis of the deposited data

How the results depend on the processing

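No paired analysis was possible because each state has 1 library. Of 71 values under alternatives, 38 stayed within the counting interval of the value reported (for the number of intervals, within 1.5 times) and 33 moved. The excess of dark over light bands in lost share, the one value here that could change sign, stayed positive in all 7 alternatives. Leaving out centromeric, variable and stalk bands removes no interval of a dark or light band, so the excess could not move there. That unchanged value is counted among the 7 and the 38. With at least 50% cover needed to count as shared, 39.4% of gained intervals were lost, their median length was 2000 bp, 3.67% were of 5.8 to 6.2 kb, 21% were lost within 5 Mb of an end and 46.4% had another within 50 kb. With intervals of the other list within 1 kb also counted, 34.5% were lost and the nearest kept interval was at 46.0 kb. With the DTP list limited to its upper part by mean signal, 2456 remained, 18.9% of gained intervals, with medians of 1000 bp and 12.1; 0.57% were of the 6 kb class, 36.5% lay in dark bands, dark exceeded light bands by 6.60 points, 9.39% were lost near ends, the nearest kept interval was at 71.9 kb and 13.5% had another within 50 kb. With equal numbers of the strongest intervals from each list there were 6023, of which 2435 were also lost by the main rule; the share lost was 46.7%, the median signal 12.1, the 6 kb class 5.2%, dark bands 34.5%, the share lost near ends 28.2%, the distance 121 kb and the share with another within 50 kb 29.9%. With intervals within 5 kb joined, 34.2% were lost, 2.66% were of the 6 kb class, 38.6% lay in dark bands, the distance was 55.9 kb and 31.2% had another within 50 kb. With X and Y added the median signal was 8.10 and 42.2% had another within 50 kb. With the outer 10% at either edge in place of 20%, 8.63% of lost gained intervals had their summit there. The causes were not tested.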

Other observations

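The rule leaves out the sex chromosomes, and the X chromosome held more such intervals per Mb than any autosome. On X, 827 of 1910 gained intervals were lost with TSA, or 43.3% (41.1 to 45.6), at 5.33 per Mb, against 4.71 per Mb on chromosome 4. Their median length was 1800 bp and their median mean signal 7.40, and 10 were of 5.8 to 6.2 kb. Chromosome Y had 12 of 26.

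Intervals found only after TSA stood farther from lost than from kept gained intervals. There were 15555 autosomal DTP + TSA intervals with no overlap with either other list, 16.4% of them in dark bands. The nearest one was a median of 97.2 kb (93.2 to 100.2) from a lost and 63.6 kb (62 to 65.6) from a kept gained interval. In light bands alone these distances were 71.0 kb (67.6 to 74.8) and 47.2 kb (45.4 to 49.0), and in dark bands 136 kb (129 to 142) and 108 kb (103 to 112). The same DTP + TSA list defines lost, kept and TSA-only intervals, so these distances are not independent of the rule. The part of the rule in the difference was not tested.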
